A study of Homo sapiens with 6 samples.

Results

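The genes described here encode the precursors of the sterol regulatory element-binding proteins (SREBPs) and the proteins that retain, escort, cut and degrade them. They were taken by symbol from the deposited gene table: SREBF1, SREBF2, SCAP, INSIG1, INSIG2, MBTPS1, MBTPS2, RNF139 and LPIN1. All 9 were found among its 37822 gene symbols, and all 9 passed the filter on low counts. The cells were Huh7, an established line from a human hepatocellular carcinoma, infected with lentivirus for 24 h. The 3 FLAG libraries, labelled wild type, received the negative control virus, and the 3 VPS72 libraries received virus for overexpression of VPS72, which handles the histone variant H2A.Z within the SRCAP and TIP60 complexes. Both groups were therefore exposed to virus packaged in HEK293T cells. The labels name neither the promoter that drives the transgene nor separate infections for the replicates. A p-value here therefore reflects the spread among these libraries alone, and that spread may be technical. The series title places SREBP1 downstream of VPS72, ATF3 and mTORC1, and the comparison asks which transcripts of this machinery differ when VPS72 is raised.

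SREBPs are transcription factors made as membrane proteins of the endoplasmic reticulum (ER). When sterols are scarce, SCAP escorts the precursor to the Golgi in COPII vesicles, where the site-1 protease (MBTPS1) and then the site-2 protease (MBTPS2) release the active fragment. When sterols are plentiful, INSIG1 and INSIG2 hold SCAP in the ER. In liver cells SREBP1 mainly drives fatty acid synthesis and SREBP2 mainly cholesterol synthesis and uptake, and INSIG1 is itself an SREBP target gene, which closes a feedback loop. RNF139 (TRC8) is a ubiquitin ligase of the ER membrane, and LPIN1 encodes lipin 1, a phosphatidate phosphatase that in the nucleus lowers SREBP activity and is controlled by mTORC1. All values below are mRNA levels, and neither precursor cleavage nor nuclear SREBP was measured.

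The promoters of INSIG1, SREBF1 and SREBF2 are shown because the comparison turns on INSIG1 against the precursors, and because SREBPs bind DNA at 2 kinds of site, sterol regulatory elements and E-boxes. Each sequence is the 250 bases before the RefSeq gene start (GRCh38.p14), 5′ to 3′ on the strand of the gene. Capitals mark matches to the sterol regulatory element TCACNCCAC, to the E-box TCACGTGA and to CCAAT (the NF-Y box, which reads ATTGG when it lies on the opposite strand).
INSIG1, chr7:155297628-155297877, plus strand: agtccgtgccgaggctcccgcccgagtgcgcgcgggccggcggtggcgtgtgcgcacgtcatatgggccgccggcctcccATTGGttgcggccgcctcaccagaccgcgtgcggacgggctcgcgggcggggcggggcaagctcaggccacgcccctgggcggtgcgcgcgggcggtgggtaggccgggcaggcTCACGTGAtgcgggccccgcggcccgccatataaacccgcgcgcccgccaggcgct
SREBF2, chr22:41832855-41833104, plus strand: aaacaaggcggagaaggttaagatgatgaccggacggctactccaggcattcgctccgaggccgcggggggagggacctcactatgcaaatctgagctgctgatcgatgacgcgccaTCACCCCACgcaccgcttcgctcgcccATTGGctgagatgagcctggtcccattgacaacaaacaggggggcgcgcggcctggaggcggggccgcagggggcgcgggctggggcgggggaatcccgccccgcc
SREBF1, chr17:17836987-17837236, minus strand: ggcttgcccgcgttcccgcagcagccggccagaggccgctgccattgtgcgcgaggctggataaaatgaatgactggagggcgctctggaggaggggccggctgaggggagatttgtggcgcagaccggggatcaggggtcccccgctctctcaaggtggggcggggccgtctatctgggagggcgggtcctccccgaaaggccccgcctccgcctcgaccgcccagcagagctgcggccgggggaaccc

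The INSIG1 window held the E-box 56 bases before the start and CCAAT on the opposite strand 170 bases before it, and had no match to the sterol regulatory element. The SREBF2 window held a sterol regulatory element 133 bases before the start and CCAAT on the opposite strand 106 bases before it. The SREBF1 window held none of these 3 motifs. Only this 1 window was searched for SREBF1, which has alternative starts, so the sequence before its other start was not covered. Both strands were searched and these 3 motifs did not overlap in these windows. Of all 35116 windows of the same length in the table, 0.883% held the sterol regulatory element, 0.854% the E-box and 32.0% CCAAT. Windows were found for 8 of the 9 genes (11 windows in all), with the exception of RNF139, and those of SCAP, INSIG2, MBTPS1, MBTPS2 and LPIN1 held none of the 3 motifs. The box GGGCGG, which Sp1 binds, occurred in 42.6% of all windows, and it was found 5 times in that of INSIG1, 3 times in that of SREBF1 and 2 times in that of SREBF2. Overlapping matches were counted, and the GGGCGG matches 126 and 121 bases before the INSIG1 start share a base. All matches in these windows are descriptions of the letters, not of binding.

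Libraries held between 21345279 and 29091824 counts. VPS72 itself had 511 to 686 counts in FLAG and 27483 to 33086 in VPS72 libraries, which fits the labels. Of 14253 genes tested, 88 changed, 60 higher and 28 lower (edgeR's quasi-likelihood test with Benjamini-Hochberg adjustment, threshold 0.05, as for every adjusted p below unless another tool is named). The split depended on scaling, with 32 higher and 54 lower with library size alone, 44 and 32 with upper quartile scaling, and 27 and 27 once a trend with abundance was removed. Leaving out FLAG replicate 1 gave 25 changed genes and leaving out FLAG replicate 3 gave 42, and the loss of VPS72 replicate 1, 2 or 3 gave 35, 52 or 56. Of 10 hepatocyte markers 7 rose and 0 fell, ALB and AFP among those that rose, and their summed level lay between 19374 and 20174 in the FLAG libraries and between 21850 and 22662 in those with VPS72, in counts per 1000000 TMM-scaled counts (CPM). NEFL, a marker chosen for the packaging cells, was at 0 counts in all 6 libraries, and with NEFM and PAX2 the sum reached 0.139 CPM at most. The sum of 6 fibroblast markers lay between 10.1 and 11.3 CPM in FLAG and between 10.1 and 10.6 CPM with VPS72. That of 5 endothelial markers was 2.84 to 4.55 and 4.13 to 4.93 CPM, and that of 6 immune cell markers 10.9 to 12.5 and 13.6 to 14.4 CPM, nearly all of it LYZ, while PTPRC had 0 or 1 count in every library.

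INSIG1 was the 1 member of 9 that passed the test. The members were chosen with earlier results of these data known, so this pass is a description and no independent support. INSIG1 was higher with VPS72, while the mRNAs of both SREBP precursors and of SCAP lay at nearly the same level in the 2 groups. Over all tested genes 0.617% passed in either direction and 0.421% were higher. In 3 members the groups did not overlap, INSIG1 and RNF139 (higher) and MBTPS1 (lower), where 17.2% of all tested genes had groups that did not overlap. The median log2 fold change of the 9 genes was 0.02, against -0.00 over all tested genes, whose middle 50% lay between -0.10 and 0.07. The median of the 9 was -0.01 with library size alone.

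**Figure D1:**
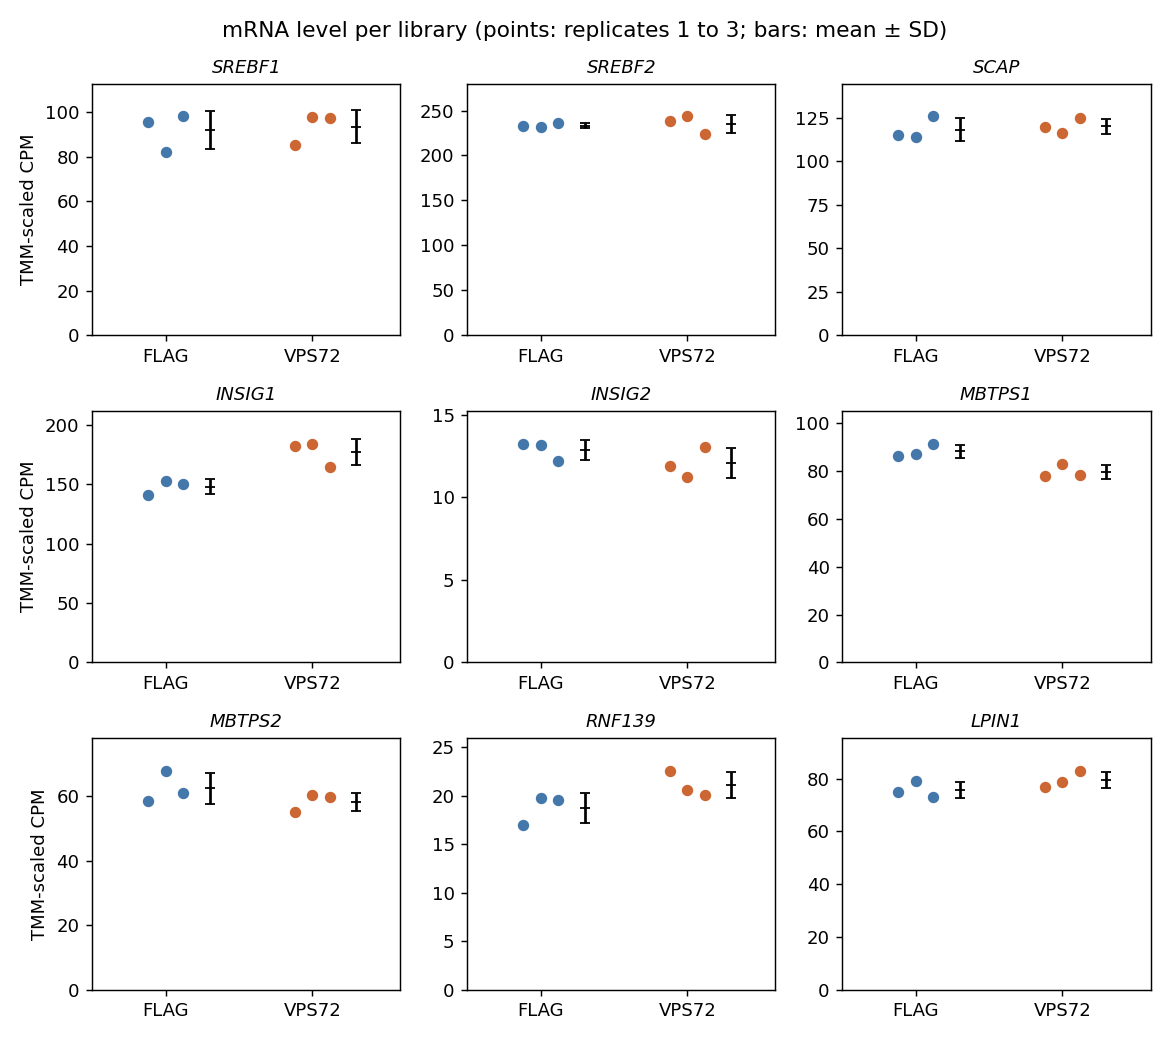
TMM-scaled CPM (y axis from 0) of the 9 genes in each library, with FLAG in blue and VPS72 in orange, replicates 1 to 3 from left to right, and mean ± SD beside the points. The INSIG1 points of the VPS72 libraries (164.9 to 184.1) all lie above those of FLAG (140.5 to 152.5), and those of MBTPS1 all lie below, whereas SREBF1, SREBF2 and SCAP overlap.

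The precursor genes come first. SREBF1, which encodes SREBP1a and SREBP1c from alternative starts that a gene-level table does not separate, stood at 95.5, 82.3 and 98.1 CPM in FLAG replicates 1 to 3 and at 85.0, 97.9 and 97.4 CPM in VPS72 replicates 1 to 3. Each group had 1 low and 2 high libraries, and the groups overlapped fully. The log2 fold change was 0.02 ± 0.07 (SE), with a 95% interval from -0.12 to 0.17 (adjusted p = 0.943). Scaling by library size alone reversed the sign (-0.0075), as did the absence of FLAG replicate 2 (-0.05), VPS72 replicate 2 (-0.0073) or VPS72 replicate 3 (-0.0059). The interval leaves room for a rise of SREBF1 of up to 0.17 on the log2 scale and for a fall of up to 0.12.

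SREBF2, which encodes SREBP2, was the most even gene of the set in FLAG, at 232.5, 231.5 and 235.9 CPM, against 238.2, 243.4 and 224.2 CPM in VPS72. The VPS72 libraries lay on both sides of the FLAG range. Its log2 fold change of 0.01 ± 0.04 had the narrowest interval of the 9, from -0.07 to 0.10 (adjusted p = 0.951). An antisense gene, SREBF2-AS1, shares 280 exonic bases with SREBF2 in the GENCODE 29 annotation but held only 11 to 36 counts per library, against 5074 to 6857 for SREBF2.

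SCAP, the escort that senses sterol and carries both precursors, stood at 115.2, 113.8 and 125.8 CPM in FLAG and 119.5, 116.1 and 124.8 CPM in VPS72. The 3 VPS72 values fall inside the FLAG range. The log2 fold change was 0.02 ± 0.05, with a 95% interval from -0.08 to 0.13 (adjusted p = 0.917).

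INSIG1, the retention protein whose gene responds to SREBP, stood at 140.5, 152.5 and 150.4 CPM in FLAG and at 182.4, 184.1 and 164.9 CPM in VPS72. All 3 VPS72 libraries were above all 3 FLAG libraries, with FLAG replicate 1 the lowest and VPS72 replicate 3 the lowest of its group. The mean went from 147.8 ± 6.37 to 177.1 ± 10.6 CPM (SD, n = 3 per group), a rise of 19.9% and a log2 fold change of 0.26 ± 0.05 (SE), with a 95% interval from 0.16 to 0.37 (adjusted p = 0.0238). By p it ranked 51 among the 14253 genes. The direction held in all 16 alternatives, with log2 fold changes from 0.23 to 0.31, but the call did not. Leaving out FLAG replicate 1 gave an adjusted p of 0.180, FLAG replicate 3 gave 0.0619, VPS72 replicate 1 gave 0.0934 and VPS72 replicate 2 gave 0.0991. A replicate block gave 0.0710, removal of the abundance trend 0.0520, and the range over all alternatives was 7.27e-06 to 0.180. The hepatocyte markers were also higher in VPS72 than in FLAG, and the part of that rise in the INSIG1 result was not tested. Within the groups the order of libraries was shared only in part. ALB followed the order of INSIG1 in FLAG, but ALB and AFP were lowest in VPS72 replicate 2, where INSIG1 was highest.

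INSIG2, the second retention protein, which is not under the same sterol control as INSIG1, was scarce, at 13.2, 13.1 and 12.2 CPM in FLAG and 11.9, 11.2 and 13.0 CPM in VPS72. VPS72 replicate 3 lay among the FLAG values and the other two VPS72 libraries below them. Its log2 fold change of -0.09 ± 0.11 did not pass (adjusted p = 0.819). The value was -0.04 without VPS72 replicate 2 and -0.15 without VPS72 replicate 3. With 262 to 343 counts per library its interval, from -0.33 to 0.14, was the widest of the 9.

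**Figure D2:**
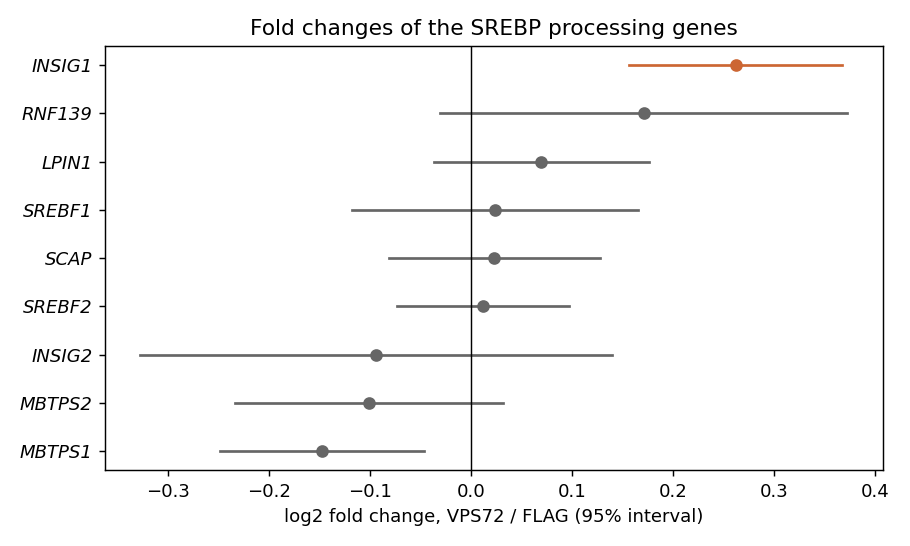
Log2 fold change of VPS72 over FLAG (x axis) with its 95% interval for each of the 9 genes, ordered by size, with the gene past the adjusted threshold in orange. INSIG1 at 0.26 is the only one past it, the intervals of SREBF1, SREBF2 and SCAP lie on both sides of 0, and that of MBTPS1, from -0.25 to -0.05, does not reach 0 although its adjusted p is 0.204.

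The site-1 protease gene MBTPS1, whose product makes the first cut in the lumenal loop of the precursor, had its groups apart in the opposite direction to INSIG1. It stood at 86.1, 87.0 and 91.4 CPM in FLAG and 77.7, 82.9 and 78.1 CPM in VPS72, with all 3 VPS72 libraries below all FLAG libraries. The log2 fold change was -0.15 ± 0.05, with an unadjusted p of 0.00708 that did not pass over all genes (edgeR, adjusted p = 0.204). Adjusted p ran from 0.112 to 0.501 in the alternatives, with log2 fold changes from -0.18 to -0.12.

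MBTPS2, the site-2 protease that cuts within the membrane, stood at 58.7, 67.9 and 61.0 CPM in FLAG and 55.1, 60.2 and 59.7 CPM in VPS72. The groups overlapped, with FLAG replicate 2 the highest library. Its log2 fold change was -0.10 ± 0.06 (adjusted p = 0.585), so both protease genes had a negative value and neither passed. The MBTPS2 value was -0.03 without FLAG replicate 2 and -0.05 without VPS72 replicate 1.

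RNF139, whose product is an ER ubiquitin ligase known to bind the SREBP2 and SCAP complex, stood at 17.0, 19.8 and 19.5 CPM in FLAG and 22.6, 20.6 and 20.1 CPM in VPS72. The groups did not overlap, though the highest FLAG library (19.8) and the lowest VPS72 library (20.1) were close. The log2 fold change was 0.17 ± 0.09, with a 95% interval from -0.03 to 0.37 (adjusted p = 0.525), and it was 0.10 without FLAG replicate 1.

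LPIN1, also an SREBP target gene besides its role on nuclear SREBP, stood at 74.9, 78.9 and 73.2 CPM in FLAG and 76.7, 78.7 and 83.0 CPM in VPS72. The groups overlapped. Its log2 fold change was 0.07 ± 0.05, with a 95% interval from -0.04 to 0.18 (adjusted p = 0.655). It was 0.04 without VPS72 replicate 3 and also with library size alone.

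INSIG1 was set against the precursor mRNAs by the ratio of 2 mRNAs within each library, which needs no scaling. This contrast was chosen with the INSIG1 and SREBF values of these libraries known, so the ratios restate those values, and they are given as a description with no test. INSIG1 counts were 0.604, 0.659 and 0.638 times those of SREBF2 in FLAG and 0.766, 0.756 and 0.736 times in VPS72. The groups were apart, and the log2 ratio was 0.25 higher in VPS72 (-0.66 ± 0.06 in FLAG, -0.41 ± 0.03 in VPS72, SD, n = 3 per group). The difference stayed between 0.22 and 0.28 when each library was left out in turn.

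The ratio of INSIG1 to SREBF1 was less clear. It was 1.47, 1.85 and 1.53 in FLAG and 2.14, 1.88 and 1.69 in VPS72, so that FLAG replicate 2 lay above VPS72 replicate 3. The log2 ratio was 0.24 higher in VPS72 (0.69 ± 0.18 against 0.92 ± 0.17, SD, n = 3 per group), from 0.15 without VPS72 replicate 1 to 0.34 without FLAG replicate 2. Among the precursors SREBF1 was the more variable in FLAG, at 91.9 ± 8.47 CPM against 233.3 ± 2.30 CPM for SREBF2.

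The mRNAs of the 2 retention proteins were compared in the same way. INSIG1 counts were 10.6, 11.6 and 12.3 times those of INSIG2 in FLAG and 15.3, 16.4 and 12.6 times in VPS72, with a difference in log2 ratio of 0.35 and no overlap (3.52 ± 0.11 against 3.88 ± 0.19, SD, n = 3 per group). FLAG replicate 3 and VPS72 replicate 3 nearly met. The ratio of SREBF1 to SREBF2 differed by 0.01 on the log2 scale (-1.35 ± 0.13 against -1.33 ± 0.14, SD, n = 3 per group).

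**Figure D3:**
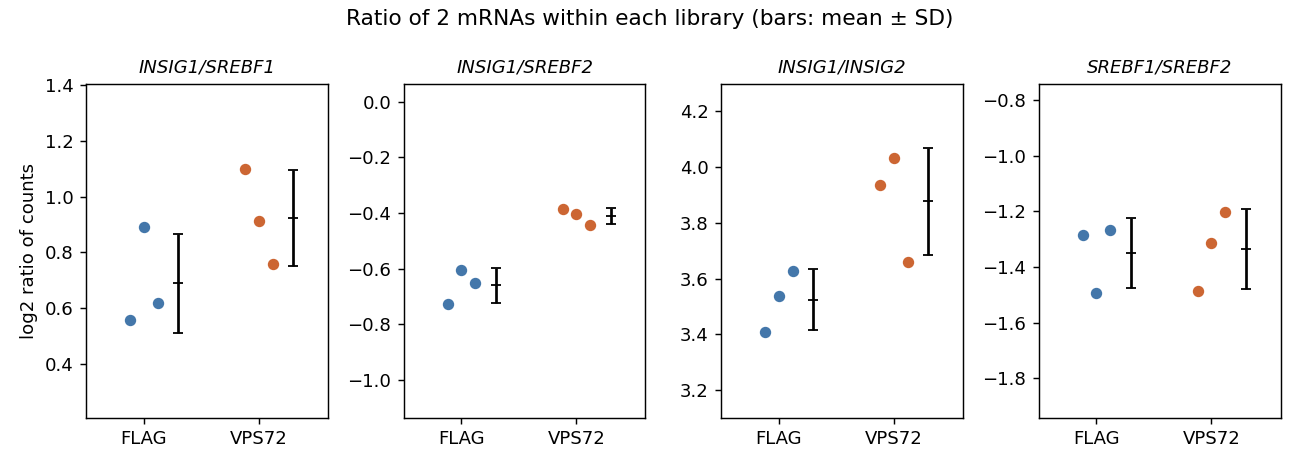
Log2 ratio of the counts of 2 genes within each library (y axes of equal span and different position), with FLAG in blue, VPS72 in orange and mean ± SD beside the points. The groups are apart for INSIG1 to SREBF2 and INSIG1 to INSIG2, overlap for INSIG1 to SREBF1, and lie together for SREBF1 to SREBF2.

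Levels of different genes were set side by side as CPM per kilobase of merged exons (GENCODE 29). In FLAG, INSIG1 was the most abundant at 48.0 ± 2.07, followed by SREBF2 at 43.5 ± 0.428, SCAP at 26.0 ± 1.44, SREBF1 at 20.5 ± 1.89 and MBTPS1 at 20.3 ± 0.651 (SD, n = 3). LPIN1 at 12.4 ± 0.485, MBTPS2 at 7.98 ± 0.613, RNF139 at 7.12 ± 0.589 and INSIG2 at 4.96 ± 0.226 followed. On this scale SREBF2 mRNA exceeded SREBF1 mRNA in every library, and the ranges of neighbours overlapped only for SREBF1 with MBTPS1 and for MBTPS2 with RNF139, in both groups. In VPS72 libraries INSIG1 reached 57.5 ± 3.46 and stood farther above SREBF2 at 43.8 ± 1.85. With the median length of the coding transcripts in place of merged exons, LPIN1 and MBTPS2 changed places in FLAG (14.06 and 14.07 CPM per kilobase) and the other genes kept their order.

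**Figure D4:**
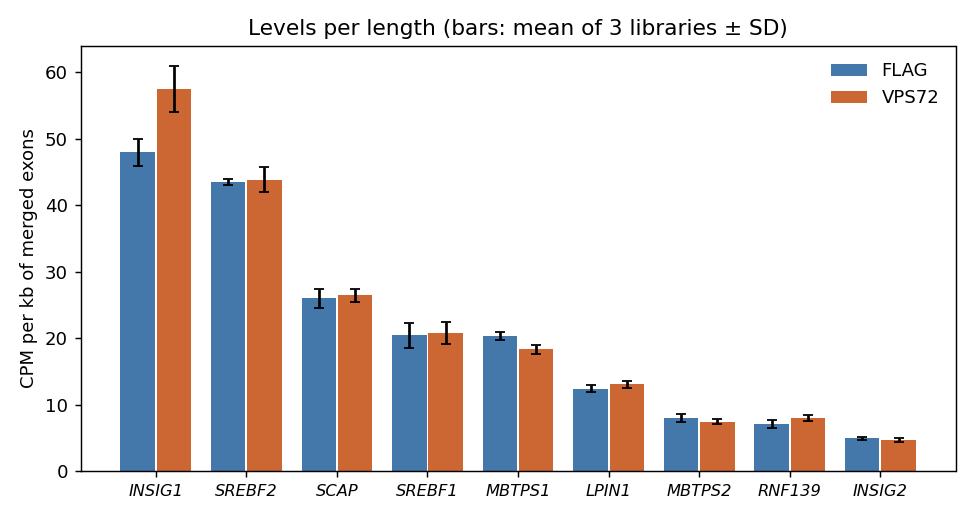
CPM per kilobase of merged exons (y axis from 0) for the 9 genes in order of their FLAG level, as bars for the mean of 3 libraries with SD. INSIG1 and SREBF2 are the tallest pair, INSIG2 is the lowest, and INSIG1 goes from 48.0 in FLAG to 57.5 in VPS72.

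Around the 9 genes, 9 lists of further pathway genes (101 genes, 99 of them tested) held 10 genes that rose and 0 that fell, and all 10 were SREBP target genes. Over all 14253 tested genes 0.617% passed in either direction and 0.421% were higher, with a median log2 fold change of -0.00. Of 23 target genes of cholesterol synthesis and uptake, 7 rose, 0 fell and 16 did not pass, with a median log2 fold change of 0.15. The 10 hepatocyte markers had a higher median, 0.20, and all 10 were positive, and their part in the rise of the target genes was not tested. The summed level of the 23 lay between 5067 and 5203 CPM in FLAG and between 5722 and 5848 CPM with VPS72. The 7 were MSMO1 and DHCR7 (late sterol enzymes, 0.28 ± 0.04 and 0.23 ± 0.04), FDFT1 (squalene synthase, 0.23 ± 0.04), FDPS, TMEM97, IDI1 and HMGCS1 (0.15 ± 0.03). The INSIG1 value of 0.26 lies near the top of the range of these 7, between MSMO1 and FDFT1, and above the median of 0.15 of all 23. Of the 23, 1 passed when FLAG replicate 1 was left out, 3 when FLAG replicate 3 or VPS72 replicate 1 was, and 4 when VPS72 replicate 2 was. MSMO1 passed in all 6 leave-outs, DHCR7 in 5, TMEM97 and FDFT1 in 3, IDI1 and FDPS in 2 and HMGCS1 in 1. Earlier results of these data already showed this list higher, so it is no independent support for INSIG1.

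Of 14 tested target genes of fatty acid and glycerolipid synthesis, 3 rose, 0 fell and 11 did not pass, with a median of 0.14. Of all tested genes 0.421% were higher. The 3 were SCD, the stearoyl-CoA desaturase (0.18 ± 0.02), ACLY, which makes cytosolic acetyl-CoA (0.19 ± 0.03), and GPAM, a glycerol-phosphate acyltransferase (0.24 ± 0.05). SCD passed in all 6 leave-outs and ACLY in 4, while GPAM, with an adjusted p of 0.0489, passed in 0 of 6 and in 4 of the 10 other alternatives. The hepatocyte markers were higher in the same libraries here too, and their part was not tested. All 14 had a positive value, also with library size alone, upper quartile scaling, DESeq2 size factors and the abundance trend removed. In the main fit 48.8% of all tested genes had a positive value. These settings reuse the same libraries, and this list too was chosen with earlier results of these data known, so it is no independent support. Only 1 of the 14 passed when FLAG replicate 1 or VPS72 replicate 1 was left out.

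The other 7 lists held 0 genes past the threshold by edgeR, and also 0 by DESeq2 and by limma-voom. Their counts of unadjusted p under 0.05 stand beside 1645 such genes among all 14253 tested. Of 12 COPII coat genes 2 had an unadjusted p under 0.05, SEC23A and SEC23B, with a list median of 0.02 that was -0.01 with library size alone, and list values from -0.09 (SEC23B, inner coat) to 0.10 (SEC23A, its paralog). Of 15 genes of ER-associated degradation 1 had an unadjusted p under 0.05, MARCHF6, a ubiquitin ligase of the ER membrane (0.09 ± 0.04), with a list median of 0.03 (-0.0041 with library size alone). Of 14 cofactors, import factors and turnover factors of nuclear SREBP 0 had an unadjusted p under 0.05, with a median of 0.02 (-0.01 with library size alone and -0.0073 with the trend removed). FBXW7, which targets nuclear SREBP for degradation, had 0.10 ± 0.07 and the deacetylase SIRT1 -0.11 ± 0.08. Single libraries moved both, FBXW7 to 0.15 without VPS72 replicate 1 and 0.06 without VPS72 replicate 3, and SIRT1 to -0.03 without VPS72 replicate 1 and -0.18 without VPS72 replicate 2.

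The 5 partners of SCAP and the site-1 protease all had groups that did not overlap, as did 17.2% of all tested genes, and 3 had an unadjusted p under 0.05, PGRMC1, HSP90AA1 and PAQR3. PGRMC1 (0.18 ± 0.05, 53.5 ± 1.04 against 60.5 ± 2.33 CPM, adjusted p = 0.166), HSP90AA1 (0.09 ± 0.03, but 0.03 with the trend removed) and HSP90AB1 (0.06 ± 0.03) were higher in 3 of 3 VPS72 libraries. PAQR3, which tethers SCAP at the Golgi (-0.16 ± 0.07, 32.4 ± 0.840 against 29.03 ± 0.957 CPM, adjusted p = 0.399), and SPRING1, a partner of the site-1 protease (-0.06 ± 0.04), were lower in 3 of 3. SPRING1 is listed in the table under its older symbol C12orf49, and PAQR3, SPRING1 and HSP90AB1 are named after their values were seen.

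The last 3 lists are small. Of 8 other substrates of the 2 proteases 1 had an unadjusted p under 0.05, GNPTAB, and the median was -0.02. GNPTAB, which the site-1 protease activates in lysosomal enzyme targeting, had 0.11 ± 0.04, and CREB3L2, a transcription factor of the ER membrane, 0.03 ± 0.04 (-0.0042 with the abundance trend removed). Of the 4 other genes of the lipin family and its phosphatase 0 had an unadjusted p under 0.05, with a median of -0.11, LPIN2 at 0.06 ± 0.04 and CNEP1R1, a subunit of the lipin phosphatase, at -0.15 ± 0.09. Of 4 tested factors that act on the SREBF1 gene 1 had an unadjusted p under 0.05. NR1H3 (LXR alpha), an activator of SREBF1 transcription, stood at 19.3 ± 2.17 and 23.2 ± 2.83 CPM (0.27 ± 0.11, adjusted p = 0.343), and RXRB at 0.08 ± 0.09. Over all alternatives NR1H3 ran from 0.17 to 0.35, RXRB from 0.03 to 0.15, CNEP1R1 from -0.23 to -0.09 and LPIN2 from 0.02 to 0.08. Over all 14253 genes 1645 had an unadjusted p under 0.05.

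**Figure D5:**
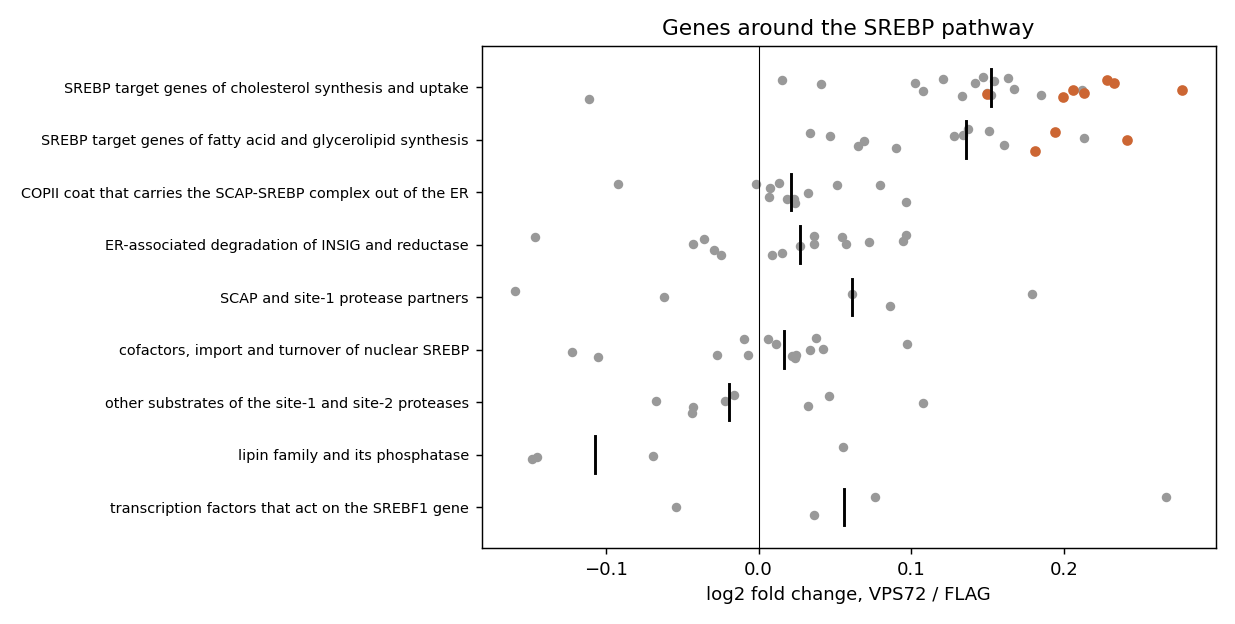
Log2 fold change of VPS72 over FLAG (x axis) for each tested gene of the 9 pathway lists (1 point per gene, spread vertically for visibility), orange where the adjusted p passed and grey where it did not, with a black bar at the list's median. The orange points, 7 and 3, are all in the 2 lists of SREBP target genes, whose medians are 0.15 and 0.14, and the other medians lie between -0.11 and 0.06.

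Over the 6 libraries, the genes whose log2 CPM followed INSIG1 most closely among 7341 genes with a mean of at least 20 CPM were PRDX6, a peroxiredoxin (Pearson r = 0.996), AMBP, a secreted liver protein (0.993), NOMO1 (0.991), LDHA, lactate dehydrogenase A (0.991), and RPL35A, a ribosomal protein (0.991). The points share the 2 groups and each library's composition, so this is a description. The 5 had smaller log2 fold changes than INSIG1, from 0.11 (NOMO1) to 0.17 (RPL35A), and 0 of them passed in the edgeR test used throughout. Of the 16 alternatives, 4 called AMBP, 2 LDHA, 1 PRDX6 and 1 RPL35A. NOMO1 and RPL35A have near-identical copies in the genome, which makes their counts less certain. Among the other members, the r to INSIG1 was 0.866 for RNF139, 0.48 for SREBF2, 0.412 for LPIN1, 0.0594 for SCAP and -0.0813 for SREBF1, and it was -0.405 for MBTPS2, -0.688 for MBTPS1 and -0.773 for INSIG2.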

How the data were processed

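RNA-seq of 6 Huh7 libraries was analysed from 1 deposited gene table. The authors deposited estimated counts per gene symbol, as whole numbers without normalization. STAR, RSEM and limma and the builds hg19 and hg38 are named in the submitters' processing notes without role or version. The unit was read from the values, and no source used here says whether counting used the strand. Groups and replicate numbers came from the sample titles.

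Genes passed filterByExpr by group (minimum count 10, minimum total 15), which kept 14253 genes with 99.9% of the counts. CPM values use TMM-scaled library sizes. VPS72 was compared with FLAG across all tested genes with edgeR 4.0.16 (R 4.3.3), and p-values were adjusted over all of them. A standard error is the log2 fold change divided by the square root of F, and 95% intervals use the moderated degrees of freedom. The script was tested on simulated data whose changed genes had larger changes than INSIG1 and the pathway list genes. That test therefore does not show how well changes as small as theirs are called. Ratios between genes are given without their permutation tests, since that contrast was chosen with its values known. Library pairs of a group differed by more than sampling noise (chi-square per degree of freedom 4.70 to 7.69).

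Named genes were the 9 members, VPS72, ALB and AFP, list genes past the threshold (or the 2 with the smallest p), and the 5 genes with the highest r to INSIG1. A result for 1 gene under this rule is not reported here. Members and lists were chosen with earlier results of these data known. All 140 list entries were found, 1 under an older symbol. Alternatives were library size only, DESeq2 size factors, upper quartile scaling, no filter, a minimum count of 50, DESeq2 1.42.0, limma-voom (limma 3.58.1), the replicate block, VPS72 left out, removal of an abundance trend (cyclic loess) and each library left out. Promoters came from RefSeq. The build behind the counts is not given, so no other coordinates are printed.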

Additional observations from a re-analysis of the deposited data

How the results depend on the processing

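Besides the values given with each result, the count of changed genes was 264 without a filter, 249 with DESeq2, 32 with a replicate block, 54 after removal of the abundance trend, and 25 to 100 when single libraries were left out. The count of members past the threshold was 0 with the block and 0 with the trend removed, and 0 to 1 over the leave-outs. For the cholesterol targets it was 4 with library size alone, 12 without a filter, 13 with DESeq2, 2 with the block, 3 with the trend removed and 1 to 7 over the leave-outs. For the fatty acid targets it was 5, 6, 1 and 1 without a filter, with DESeq2, with the block and with the trend removed, and 1 to 3 over the leave-outs. The other 7 lists had 0 in the leave-outs. The sign turned for SREBF1 (-0.0075), SREBF2 (-0.0190) and SCAP (-0.0081) with library size alone, and for SREBF2 (-0.0180) and CREB3L2 (-0.0042) with the trend removed. Over the leave-outs SREBF1 ran from -0.0497 to 0.0937, SREBF2 from -0.0085 to 0.0467, SCAP from -0.0038 to 0.0696, and the log2 ratio of SREBF1 to SREBF2 from -0.0588 to 0.0898, with the differences of INSIG1 to SREBF1 from 0.15 to 0.34, to SREBF2 from 0.22 to 0.28 and to INSIG2 from 0.27 to 0.46. In these lost calls the cause was not tested. Same-numbered libraries did not deviate together (r = -0.302, -0.139 and 0.155 over 7341 genes for numbers 1, 2 and 3), and the highest r joined different numbers, 0.43 for FLAG replicate 2 and VPS72 replicate 1, so the numbers were not taken as pairs, and the block leaves fewer residual degrees of freedom. For the differences in log2 ratio of INSIG1 to SREBF1, SREBF2 and INSIG2 (0.24, 0.25 and 0.35) the replicate block gives the same values by construction. That setting therefore says nothing about how stable they are.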
